A study of Mus musculus with 12 samples.

Results

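The sarcomere and fibre type genes were a set of 40 genes that encode the proteins of the contractile unit of skeletal muscle. They were chosen by symbol, and every probe that the array's annotation assigned to a member was used. Of the 40 genes, 32 were measured, by 34 of the 33012 probes on the array. The measured genes fell into 9 slow isoform genes, 8 fast isoform genes with 9 probes, and 15 genes shared between fibre types with 16 probes. The other 8 members had no probe under their symbol here: Myh1, Myh2, Myh4 and Mylk2 of the fast genes, Myh3 and Myh8 of the developmental genes, and Actn2 and Neb of the shared genes. Of the 6 myosin heavy chain genes in the set, Myh7 was therefore the only one measured, and the developmental group was not measured at all.

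The animals were male mice of the homozygous congenic strain B6.CAST-17, which carries chromosome 17 material of the CAST strain on a B6 background, and male wild type B6 mice. Skeletal muscle and hypothalamus of both strains were profiled, with 3 arrays in each of the 4 groups. All groups share the B6 background. The study concerned physical activity and carbohydrate preference in the congenic line. The titles of the hypothalamus samples alone call the congenics short, so the sample labels do not establish that both tissues came from the same line or the same mice. The sources used here give neither the age of the mice nor the muscle taken nor the ends of the congenic interval. Myom1 is the only measured member on chromosome 17.

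A sarcomere shortens when the thick filaments of myosin pull on thin filaments of actin. Calcium permits this by binding troponin, which shifts the position of tropomyosin on the thin filament. Slow oxidative and fast glycolytic fibres build the same structure from different isoforms of the myosin heavy and light chains, the troponin subunits and the myosin binding proteins, and the mixture differs between muscles and shifts with activity and nerve input. Titin, desmin and the proteins of the Z disc and M band hold the filaments in register, and a few of them, such as Ankrd2 and Csrp3, also respond to mechanical load.

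The values were log2 intensities, and base 2 was inferred from their range of 5.35 to 21.1. The median probe read 9.12 in muscle and 8.98 in hypothalamus. Spearman correlations between arrays, taken across probes, ran from 0.796 to 0.862 in muscle. In hypothalamus, wild type array 1 stood apart, with correlations of 0.420 to 0.461 with the other 5 arrays, which correlated at 0.775 to 0.853 among themselves. Each comparison that uses hypothalamus is therefore also given without that array, in counts, ranges and medians. The sarcomere genes marked the muscle arrays: all 9 fast probes read between 19.66 and 20.93 in muscle and between 7.02 and 10.74 in hypothalamus. Of 8 measured neuron marker genes, 6 were lower in muscle by limma, and the exceptions were Snap25, at 0.04, and Syt1, at 0.01 log2. The Snap25 probe read low in both tissues, with means of 7.78 in muscle and 7.74 in hypothalamus. Both means were below the 20th percentile of the probes in their tissue.

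The promoters of 6 members are shown as examples of the patterns in muscle. Myoz2, Myl3, Tnnt1 and Ankrd2 were high on the same 2 muscle arrays, Tnnc1 was low on them, and Acta1 varied little. Csrp3 and Myh7 were high on those arrays too but are not shown. Each sequence is the 250 bases before the transcript start in RefSeq on GRCm38.p6, written 5′ to 3′ on the gene's strand. Capitals mark an E-box (CANNTG), a MEF2 site, a CArG box or a TATAAA on either strand.

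Myoz2 promoter, chr3:123034988-123035237, minus strand: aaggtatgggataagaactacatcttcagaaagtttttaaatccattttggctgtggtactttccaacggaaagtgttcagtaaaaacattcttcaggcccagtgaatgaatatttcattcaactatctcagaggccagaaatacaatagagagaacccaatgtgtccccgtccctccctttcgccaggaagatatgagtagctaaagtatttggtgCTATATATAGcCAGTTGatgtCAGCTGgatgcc

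Myl3 promoter, chr9:110763428-110763677, plus strand: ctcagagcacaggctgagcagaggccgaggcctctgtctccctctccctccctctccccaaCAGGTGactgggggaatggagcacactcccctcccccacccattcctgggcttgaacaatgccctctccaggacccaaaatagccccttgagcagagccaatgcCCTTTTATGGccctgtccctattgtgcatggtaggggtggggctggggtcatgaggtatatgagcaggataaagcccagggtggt

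Tnnt1 promoter, chr7:4515976-4516225, minus strand: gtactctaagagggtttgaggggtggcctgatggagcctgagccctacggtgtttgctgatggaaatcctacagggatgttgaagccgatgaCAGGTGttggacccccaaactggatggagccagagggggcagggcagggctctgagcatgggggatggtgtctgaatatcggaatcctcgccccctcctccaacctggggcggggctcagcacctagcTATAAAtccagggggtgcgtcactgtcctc

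Ankrd2 promoter, chr19:42035777-42036026, plus strand: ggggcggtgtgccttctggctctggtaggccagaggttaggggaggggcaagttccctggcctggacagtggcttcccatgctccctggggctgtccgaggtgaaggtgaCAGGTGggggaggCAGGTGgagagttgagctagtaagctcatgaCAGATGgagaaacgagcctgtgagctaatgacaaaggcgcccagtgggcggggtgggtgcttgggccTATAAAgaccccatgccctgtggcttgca

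Tnnc1 promoter, chr14:31208062-31208311, plus strand: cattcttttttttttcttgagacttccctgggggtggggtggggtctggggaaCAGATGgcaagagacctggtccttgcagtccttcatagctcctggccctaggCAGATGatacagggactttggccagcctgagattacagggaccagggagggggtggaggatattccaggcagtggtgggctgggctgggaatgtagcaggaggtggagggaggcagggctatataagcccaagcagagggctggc

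Acta1 promoter, chr8:123894776-123895025, minus strand: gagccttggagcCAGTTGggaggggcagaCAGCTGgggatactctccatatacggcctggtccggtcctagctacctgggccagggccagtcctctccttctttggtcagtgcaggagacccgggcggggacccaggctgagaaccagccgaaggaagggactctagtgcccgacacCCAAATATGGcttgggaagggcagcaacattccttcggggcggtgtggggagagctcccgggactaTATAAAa

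Searching the full windows, which also take in the 50 bases after the start, found 30 windows for 24 of the 32 measured members. An E-box lay in 28 of the 30, or 93.3%, against 72.3% of all 32851 windows of the same length. A CArG box, the binding sequence of serum response factor, lay in 5 of the 30, or 16.7%, against 1.63% of all windows. The 5 windows belonged to Acta1, Myl3, Myom1 and Ldb3, the last with 2 overlapping windows that hold the same CArG box. Windows of a gene can overlap, so these are counts of windows and not of separate sites. A MEF2 site lay in 2 windows, those of Myoz2 and Ttn (6.67% against 3.19%), and TATAAA in 6 (20% against 13.6%). The Myoz2 MEF2 site began 33 bases before the start, next to E-boxes at 22 and 12 bases. The CArG box of Acta1 began at 73 bases and that of Myl3 at 85 bases. Of these motifs the Tnnc1 window held only E-boxes, at 197 and 145 bases. The windows of Csrp3 and Myh7 also held only E-boxes. These matches describe the sequences and are not evidence of binding.

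The first comparison asked whether the congenic strain differed from wild type in the contractile genes of its skeletal muscle. No member passed the test: 0 of 34 probes reached an adjusted p under 0.05 (limma, Benjamini-Hochberg over 33012 probes), against 6 probes on the whole array (0.0182%). Adjusted p-values of the members ran from 0.835 to 0.998. At an unadjusted p under 0.05 there was 1 member, Mybpc1, against 1653 of all probes (5.01%). Congenic and wild type arrays did not overlap for 2 of 34 probes, those of Mybpc1 and the brighter Ttn probe, against 11.9% of all probes. The members' shares on these counts were no larger than those of the array as a whole. The p-values rest on the spread among the 3 arrays of each strain, with the variance moderated across probes. The sample titles do not state that each array is 1 mouse.

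**Figure D1:**
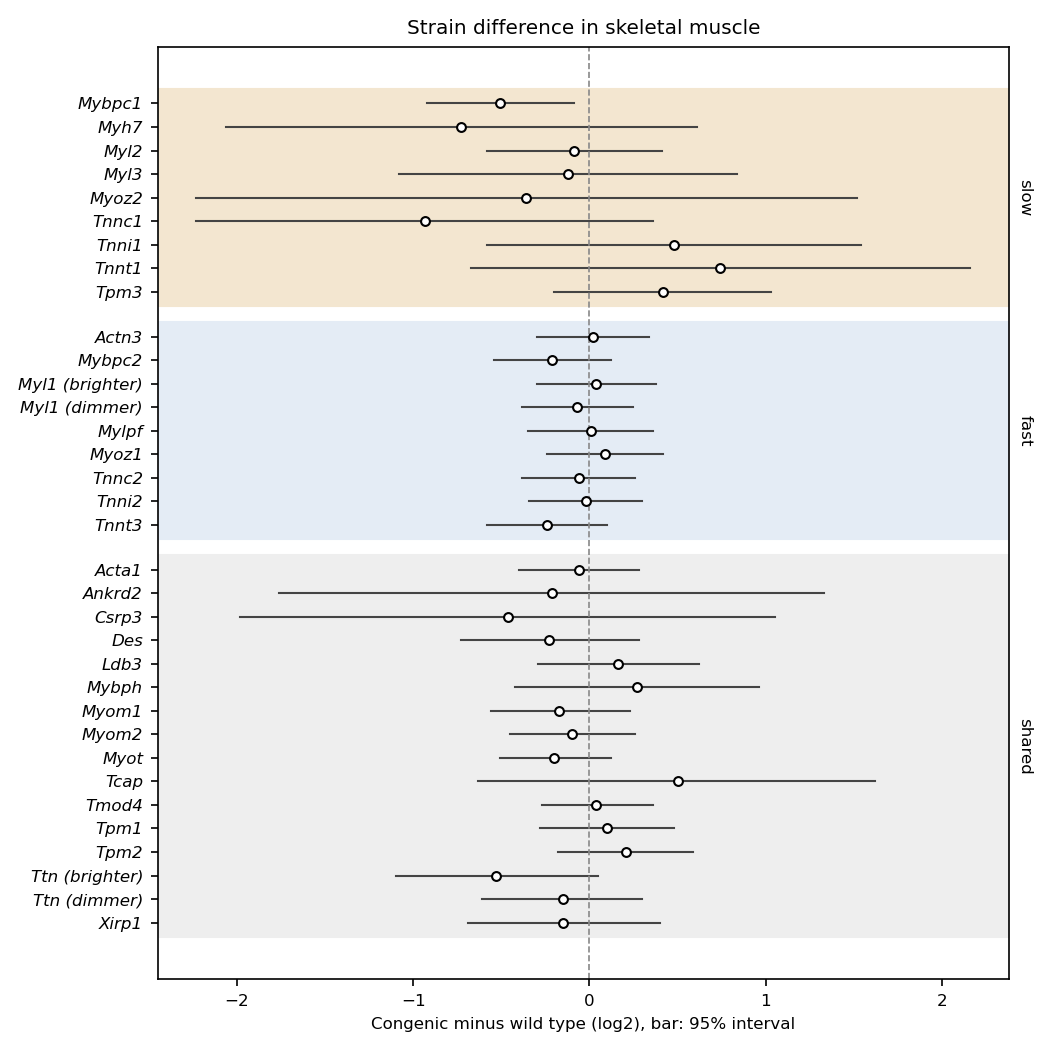
Difference between congenic and wild type skeletal muscle (log2, x axis) for the 34 probes, grouped into slow, fast and shared genes; points are limma estimates from 3 arrays against 3 and bars are 95% intervals. All points are open because no probe passed; the fast genes have the narrowest intervals, within -0.58 and 0.42, and the slow genes reach from -2.23 to 2.16.

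The slow genes varied most. Over the 9 slow genes the difference ran from -0.93 to 0.74 log2, with 3 higher and 6 lower in the congenics and a median of -0.12, against a median of 0.01 over all probes. Their median absolute difference was 0.48, against 0.29 over all probes, but their median standard deviation within a strain was also high, at 0.67 against 0.46. Their 95% intervals reached from -2.23 to 2.16, so that changes of up to 4.69-fold down and 4.47-fold up lay inside them.

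Mybpc1, the slow isoform of myosin binding protein C (probe 594811), read 16.25, 16.24 and 16.51 on the congenic arrays and 16.52, 16.86 and 17.14 on the wild type arrays. Every congenic array was below every wild type array, although the closest values of the 2 strains differed by little. The means were 16.33 ± 0.15 and 16.84 ± 0.31 (SD, n = 3 each). The difference was -0.51 log2 (SE 0.19, 95% interval -0.92 to -0.09), with an adjusted p of 0.835 by limma.

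Tnnc1 encodes the troponin C of slow and cardiac muscle, the calcium sensor of the thin filament. Its probe (580201) read 15.91, 15.45 and 13.86 in congenic and 17.11, 15.93 and 14.98 in wild type muscle. The strains overlapped, and in both of them array 3 was the lowest. The difference was -0.93 log2 (SE 0.58, 95% interval -2.23 to 0.36; limma adjusted p = 0.835).

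Tnnt1, the slow troponin T that ties troponin to tropomyosin (probe 922864), read 10.72, 10.11 and 12.04 in congenic and 9.06, 10.22 and 11.37 in wild type muscle. Array 3 was the highest in both strains. The strains overlapped, and the difference was 0.74 log2 (SE 0.63, 95% interval -0.67 to 2.16; limma adjusted p = 0.849).

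Myh7, the slow myosin heavy chain and the motor of slow fibres (probe 336643), read 9.11, 8.15 and 10.54 in congenic and 10.19, 9.50 and 10.29 in wild type muscle. Congenic array 3 was the highest of all 6, and the other 2 congenic arrays were below every wild type array. The difference was -0.73 log2 (SE 0.60, 95% interval -2.06 to 0.61; limma adjusted p = 0.847).

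The other slow genes were Tpm3 at 0.42 log2, Tnni1 at 0.48, Myl2 at -0.09, Myl3 at -0.12 and Myoz2 at -0.36. Tpm3 encodes the slow tropomyosin, Tnni1 the slow inhibitory troponin, Myl2 and Myl3 the regulatory and essential light chains of slow and cardiac myosin, and Myoz2 a Z disc protein that binds calcineurin. None passed limma's test. Tnni1 read between 8.16 and 9.54 in muscle, around the median probe of the array at 9.12.

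The fast genes differed little between the strains. All 9 probes had differences between -0.24 and 0.09 log2, with standard errors of 0.14 to 0.16. The 8 genes split evenly, 4 higher and 4 lower in the congenics, with a median of -0.01 and a median absolute difference of 0.05, against 0.29 over all probes. The 95% intervals of all fast probes lay between -0.58 and 0.42, so that changes beyond 1.49-fold down and 1.34-fold up lay outside every one of them. These probes read close to the highest value in the files, 21.1, and whether the signal was compressed there was not tested.

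Tnnt3, the fast troponin T (probe 905899), read 19.98, 19.67 and 19.66 in congenic and 20.07, 20.12 and 19.84 in wild type muscle. The ranges overlapped by congenic array 1. The difference was -0.24 log2 (SE 0.15, 95% interval -0.58 to 0.10; limma adjusted p = 0.835).

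Mybpc2, the fast myosin binding protein C (probe 699693), read 20.14, 20.15 and 20.25 in congenic and 20.17, 20.56 and 20.44 in wild type muscle. Wild type array 1 lay among the congenic values. The difference was -0.21 log2 (SE 0.15, 95% interval -0.54 to 0.12; limma adjusted p = 0.835).

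Myoz1, the fast fibre relative of Myoz2 at the Z disc (probe 923071), read 19.77, 19.97 and 20.16 in congenic and 19.80, 19.89 and 19.94 in wild type muscle. The wild type values lay inside the congenic range. The difference was 0.09 log2 (SE 0.15, 95% interval -0.24 to 0.42; limma adjusted p = 0.913).

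The remaining fast genes were within 0.07 log2 of no difference: Actn3, the alpha-actinin of fast fibres, at 0.02, Mylpf, the fast regulatory light chain, at 0.01, Tnnc2, the fast troponin C, at -0.06, and Tnni2, the fast inhibitory troponin, at -0.02. Myl1, the fast essential light chain, had 2 probes, at 0.04 (616487) and -0.07 (690030). Slow and fast counterparts of 1 protein can be read side by side. Slow Mybpc1 was at -0.51 and fast Mybpc2 at -0.21, slow Tnnt1 at 0.74 and fast Tnnt3 at -0.24, slow Tnnc1 at -0.93 and fast Tnnc2 at -0.06, and slow Tnni1 at 0.48 and fast Tnni2 at -0.02. The slow genes did not lean one way across these 4 pairs.

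The shared genes include the actin, the tropomyosins, titin and the Z disc and M band proteins. Over the 15 genes the difference ran from -0.53 to 0.50 log2, with 6 higher and 9 lower in the congenics and a median of -0.10. Their median absolute difference was 0.20, and their 95% intervals lay between -1.98 and 1.62.

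Ttn encodes titin, the giant spring that runs from Z disc to M band. Its brighter probe (305846) read 20.07, 19.98 and 19.01 in congenic and 20.12, 20.37 and 20.15 in wild type muscle. All congenic values were below all wild type values, but congenic array 3 made most of the difference. It was -0.53 log2 (SE 0.26, 95% interval -1.10 to 0.05; limma adjusted p = 0.835).

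The other Ttn probe (817846) read 16.42, 16.40 and 16.89 in congenic and 16.40, 17.00 and 16.78 in wild type muscle. On this probe the strains overlapped and congenic array 3 was the highest congenic value, not the lowest. The difference was -0.15 log2 (SE 0.20), so the 2 probes of titin had the same sign but disagreed on the array behind it.

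Tcap, or telethonin, caps titin at the Z disc. Its probe (677638) read 7.10, 8.90 and 8.96 in congenic and 7.94, 7.87 and 7.65 in wild type muscle. Congenic array 1 was below and the other 2 congenic arrays were above all wild type arrays, and every value was below the median probe. The difference was 0.50 log2 (SE 0.50, 95% interval -0.63 to 1.62; limma adjusted p = 0.863).

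Csrp3, the muscle LIM protein of the Z disc (probe 495977), read 11.84, 10.31 and 12.73 in congenic and 11.29, 11.49 and 13.49 in wild type muscle. Array 3 was the highest in both strains, and the strains overlapped. The difference was -0.46 log2 (SE 0.68, 95% interval -1.98 to 1.05; limma adjusted p = 0.903).

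Acta1, the skeletal alpha-actin of the thin filament (probe 916274), read 20.40, 20.16 and 20 in congenic and 20.15, 20.23 and 20.35 in wild type muscle. Its difference was -0.06 log2 (SE 0.15). Among the filament genes, Tpm1 was at 0.10 and Tpm2, the beta tropomyosin, at 0.21. The M band genes Myom1 and Myom2 were at -0.17 and -0.10. Des, the desmin filament, was at -0.23, Ldb3 at 0.16, Myot, or myotilin, at -0.20, Mybph at 0.27, Tmod4, which caps thin filaments, at 0.04, Xirp1 at -0.15 and Ankrd2 at -0.21. Leaving out 1 array turned the sign of 19 of the 34 probes, none of which had a difference larger than 0.46. The larger differences kept their sign but not their size: Tnnt1 ran from 0.16 to 1.32, Myh7 from -1.36 to -0.17, Tnnc1 from -1.45 to -0.33, Tcap from 0.18 to 1.10, Tnni1 from 0.20 to 0.85, the brighter Ttn probe from -0.72 to -0.19 and Mybpc1 from -0.67 to -0.35.

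In several slow genes the muscle arrays separated by array number rather than by strain. On the arrays numbered 3 of both strains, a subset of slow and shared genes was high together, whereas each fast probe ranged over only 0.30 to 0.46 log2 across the 6 arrays. These genes were chosen after their values were seen, and the numbers are not stated to pair mice.

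Myoz2 (probe 819881) read 11.00, 10.66 and 13.94 in congenic and 11.14, 11.96 and 13.57 in wild type muscle. Ankrd2, a titin-associated protein of slow fibres that responds to stretch (probe 537815), read 13.72, 13.91 and 15.72 in congenic and 13.59, 14.09 and 16.31 in wild type muscle. Myl3 (probe 730972) read 11.34, 10.43 and 12.31 in congenic and 11.34, 11.43 and 11.67 in wild type muscle. For each of the 3 genes the arrays numbered 3 were the 2 highest of the 6.

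The mean of the 2 arrays numbered 3 exceeded that of the other 4 by 2.57 log2 for Myoz2, 2.18 for Ankrd2, 1.88 for Csrp3, 1.67 for Tnnt1, 1.17 for Myh7 and 0.85 for Myl3. Tnnc1 went the other way, at -1.68. Both arrays numbered 3 lay above the other 4 for 8 of the 32 measured genes, against 9.26% of all probes. These 8 were Myoz2, Myh7, Myl3 and Tnnt1 among 9 slow genes, Ankrd2, Csrp3 and Tpm2 among 15 shared genes and Mylpf among 8 fast genes. Both lay below the other 4 for Tnnc1 and Tpm1, against 7.49% of all probes. Of the 9 slow genes, 4 were thus high on both arrays, Tnnc1 was low, and Mybpc1, Myl2, Tnni1 and Tpm3 did not separate by number. The median deviation of the slow genes from their own means was -0.17, -0.35 and 0.80 on the congenic arrays and -0.07, -0.10 and 0.25 on the wild type arrays.

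**Figure D2:**
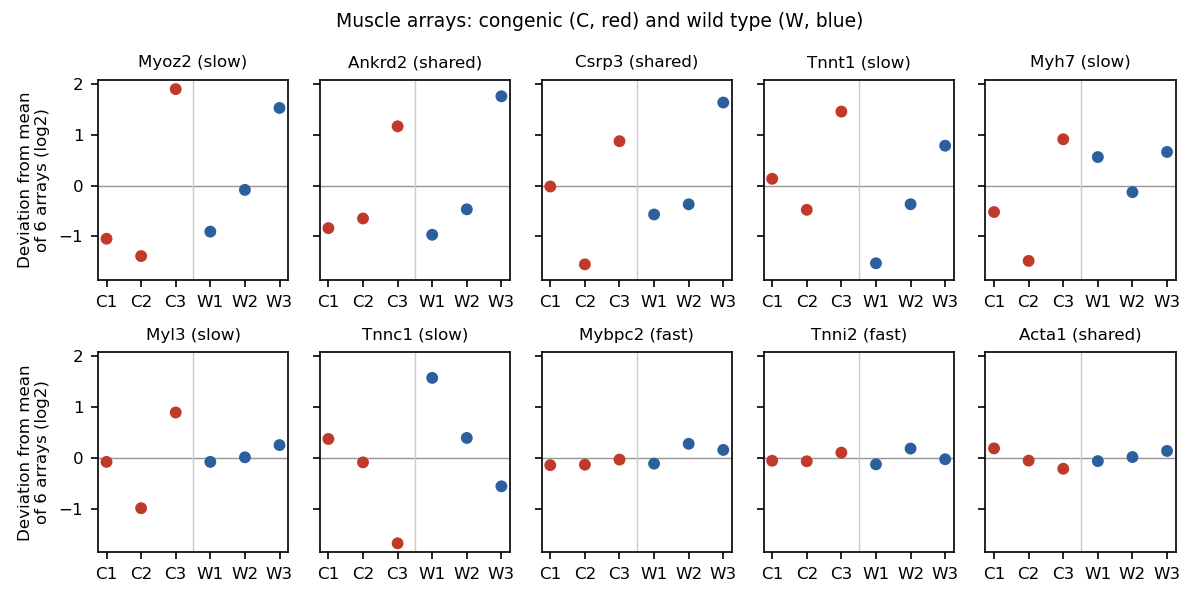
Deviation of each muscle array from the gene's mean over 6 arrays (log2, y axis) for 10 genes; C1 to C3 (red) are the congenic and W1 to W3 (blue) the wild type arrays, 1 point per array. C3 and W3 are the 2 highest points for Myoz2, Ankrd2, Csrp3, Tnnt1, Myh7 and Myl3 and the 2 lowest for Tnnc1, while Mybpc2, Tnni2 and Acta1 stay near 0.

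Of 8 measured calcium and oxygen genes, both arrays numbered 3 lay above the other 4 for 1 and below them for 2, against 9.26% and 7.49% of all probes. Myoglobin, Mb, the oxygen store of oxidative fibres, read 17.14, 17.37 and 18.51 in congenic and 16.83, 17.38 and 18.21 in wild type muscle. Pvalb, the calcium buffer of fast fibres, read 19.97, 19.77 and 19.23 in congenic and 19.81, 19.88 and 19.26 in wild type muscle, and Ckm, the muscle creatine kinase, 19.99, 19.75 and 19.31 and then 19.94, 19.77 and 19.61. Mb was thus higher and Pvalb and Ckm lower on both arrays numbered 3, and the other 5 genes, Atp2a1, Casq2, Ckmt2, Pln and Sln, did not separate in this way on the probe with the highest mean. The 2 Casq2 probes differed in sign, with the mean of the arrays numbered 3 lying -0.40 from the others on the brighter probe and 0.76 on the dimmer, where both lay above the other 4.

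Of 5 adipocyte markers, 1 was lowest on both arrays numbered 3. This was Fabp4, which read 19.39, 18.88 and 17.04 in congenic and 19.47, 18.46 and 17.79 in wild type muscle. The others, Cidec, Lep, Plin1 and Retn, did not separate by number, and Lep and Retn were highest of the wild type arrays on array 3, at 8.87 and 8.33. The mean level of 5 adipocyte markers was 12.11, 12.03 and 11.12 in congenic and 11.98, 11.37 and 11.05 in wild type muscle. The mean level of 6 smooth muscle markers was 11.83, 11.91 and 12.82 in congenic and 11.68, 12.19 and 11.98 in wild type muscle, so that all 6 were above their own mean on congenic array 3 and 1 was on wild type array 3. The part of these cell types in the pattern was not tested. In a bulk sample, fewer cells of a type and less RNA per cell cannot be told apart.

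Without the arrays numbered 3, which left 2 arrays of each strain, 0 of 34 probes passed limma's test. Of the slow genes, Myh7 was then at -1.21 log2, Tnnc1 at -0.84, Myoz2 at -0.72, Myl3 at -0.50, Mybpc1 at -0.44 and Myl2 at -0.20. Tnnt1, Tpm3 and Tnni1 went the other way, at 0.78, 0.33 and 0.03. Of the shared genes, Csrp3 was at -0.32 and Ankrd2 at -0.02. With all arrays the values of Myoz2, Myh7 and Ankrd2 had been -0.36, -0.73 and -0.21.

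Other genes of the contractile apparatus and its control gave the same count. None of 27 measured further sarcomere genes passed limma's test between the muscle strains, with 13 higher, 14 lower and a median of -0.01. Actc1, the cardiac alpha-actin, read 19.48, 19.48 and 18.84 in congenic and 18.68, 18.36 and 17.77 in wild type muscle. All congenic values were above all wild type values, and the difference was 0.99 log2 (SE 0.25, limma adjusted p = 0.835). Myh6 was at 0.85, with congenic array 3 the highest at 10.85, and Obsl1 at 0.47. Obsl1 read below the median probe on every muscle array.

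None of 19 measured regulators of fibre type passed either, with 9 higher, 10 lower and a median of -0.13. Mef2c, a transcription factor of slow fibre genes, read 15.26, 15.32 and 13.18 in congenic and 15.56, 15.73 and 15.68 in wild type muscle. Congenic array 3 alone was far below the rest. The difference was -1.07 log2 (SE 0.48, limma adjusted p = 0.835). Tead1 was at -1.02, with every muscle value below the median probe, and Esrrg at 0.65 on its brighter probe. The other Esrrg probe had the opposite sign, with means of 7.92 in congenic and 8.21 in wild type muscle. None of 8 measured calcium and oxygen genes of the fibre types passed, with 2 higher, 6 lower and a median of -0.08. Pln was at -0.47, with every muscle value below the median probe, Casq2 at -0.36 on its brighter probe and Mb at 0.19. The dimmer Casq2 probe went the other way, with means of 12.93 in congenic and 12.49 in wild type muscle.

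The second comparison set skeletal muscle against hypothalamus in both strains. All 9 fast probes were higher in muscle, by 10.54 log2 or more. The shared genes ran from -0.94 to 11.84 and the slow genes from -3.86 to 8.32, so the lists overlapped, and a difference between the lists was not tested. Myh7 was higher in hypothalamus. By limma, 31 of 34 probes passed, 30 higher and 1 lower in muscle, against 29.5% of all probes in either direction (18.5% higher and 11.0% lower). Counted by gene, 28 of 32 were higher and 1 lower. All muscle values were separate from all hypothalamus values for 30 of the 34 probes, against 20.2% of all probes.

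**Figure D3:**
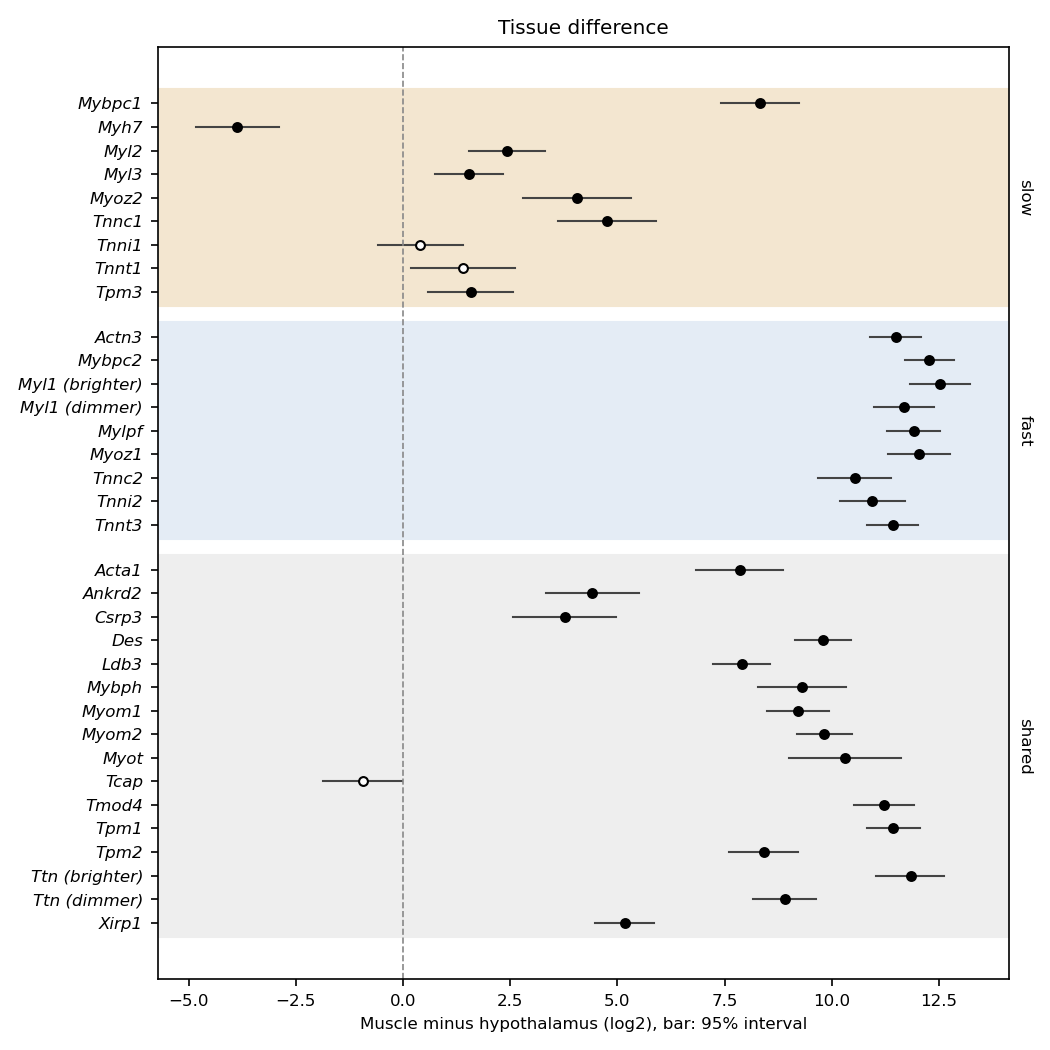
Difference between muscle and hypothalamus (log2, x axis) for the 34 probes in slow, fast and shared groups; points are limma estimates over 12 arrays, bars are 95% intervals, and filled points passed an adjusted p of 0.05. The fast genes lie between 10.54 and 12.53, Myh7 lies at -3.86, and the open points are Tnni1, Tnnt1 and Tcap.

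The fast genes were 10.54 to 12.53 log2 higher in muscle, with limma adjusted p-values of 5.55e-10 or less and a median of 11.70, against 0.17 over all probes. Myl1 showed the largest difference, 12.53 (SE 0.32) on its brighter probe, and Mybpc2 followed at 12.28 (SE 0.26). Tnnc2 was the smallest at 10.54 (SE 0.39). Without wild type hypothalamus array 1 the range was 10.72 to 12.77 and the median 11.73. In hypothalamus the fast probes had means from 7.88 to 9.40, around or below the median probe, so the fold changes depend on the background there. The 2 tissues also appear to have been normalized separately, and levels across them are set by that step.

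The slow genes had a median difference of 1.58 log2. Of the 9, 6 were higher in muscle, 1 was lower and 2 did not pass. Mybpc1 was 8.32 higher (SE 0.42), Tnnc1 4.77 (SE 0.53), Myoz2 4.06 (SE 0.59), Myl2 2.43 (SE 0.41), Tpm3 1.58 (SE 0.46) and Myl3 1.54 (SE 0.37). Without wild type hypothalamus array 1 the slow genes ran from -3.59 to 8.11, with a median of 1.81. Tnnt1, at 1.40 (limma adjusted p = 0.0788), and Tnni1, at 0.40 (limma adjusted p = 0.572), were not called.

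Myh7 read 13.28, 13.45 and 13.27 in congenic and 14.74, 12.97 and 13.23 in wild type hypothalamus, where the muscle values given above ran from 8.15 to 10.54. Every hypothalamus array was above every muscle array. The difference, muscle minus hypothalamus, was -3.86 log2 (SE 0.44, 95% interval -4.82 to -2.90; limma adjusted p = 1.8e-05), which is 14.5-fold. Without wild type hypothalamus array 1 it was -3.59. Which transcripts the probe detects could not be checked, because probe sequences were not used here.

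Acta1 and Tpm2 were high in muscle and also above the median probe in hypothalamus. Acta1 read 12.77, 13.08 and 10.75 in congenic and 13.92, 11.97 and 11.68 in wild type hypothalamus. Tpm2 read 12.47, 12.24 and 11.42 in congenic and 13.36, 11.60 and 11.47 in wild type hypothalamus. For both genes wild type array 1 was the highest and congenic array 3 the lowest. Muscle exceeded hypothalamus by 7.85 log2 for Acta1 (SE 0.47) and 8.42 for Tpm2 (SE 0.37), and by 8.20 and 8.72 without wild type hypothalamus array 1.

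Over the 15 shared genes the median difference was 9.21 log2, and 14 were higher in muscle. Their called probes ran from 3.77 for Csrp3 to 11.84 for the brighter Ttn probe. The Z disc genes Ldb3 and Myot were 7.90 and 10.31 higher in muscle and Des 9.79. Tcap was the exception, at -0.94 (SE 0.43, limma adjusted p = 0.122), with a mean of 8.07 in muscle and 9.01 in hypothalamus. Tcap is an abundant muscle transcript by textbook knowledge, and its probe read below the median probe in muscle. Without wild type hypothalamus array 1 the shared median was 9.09, and 32 of 34 probes passed, against 40.5% of all probes. The added probe was Tnnt1, at 1.81 (limma adjusted p = 0.00516), and Tnni1 was then at -0.04.

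**Figure D4:**
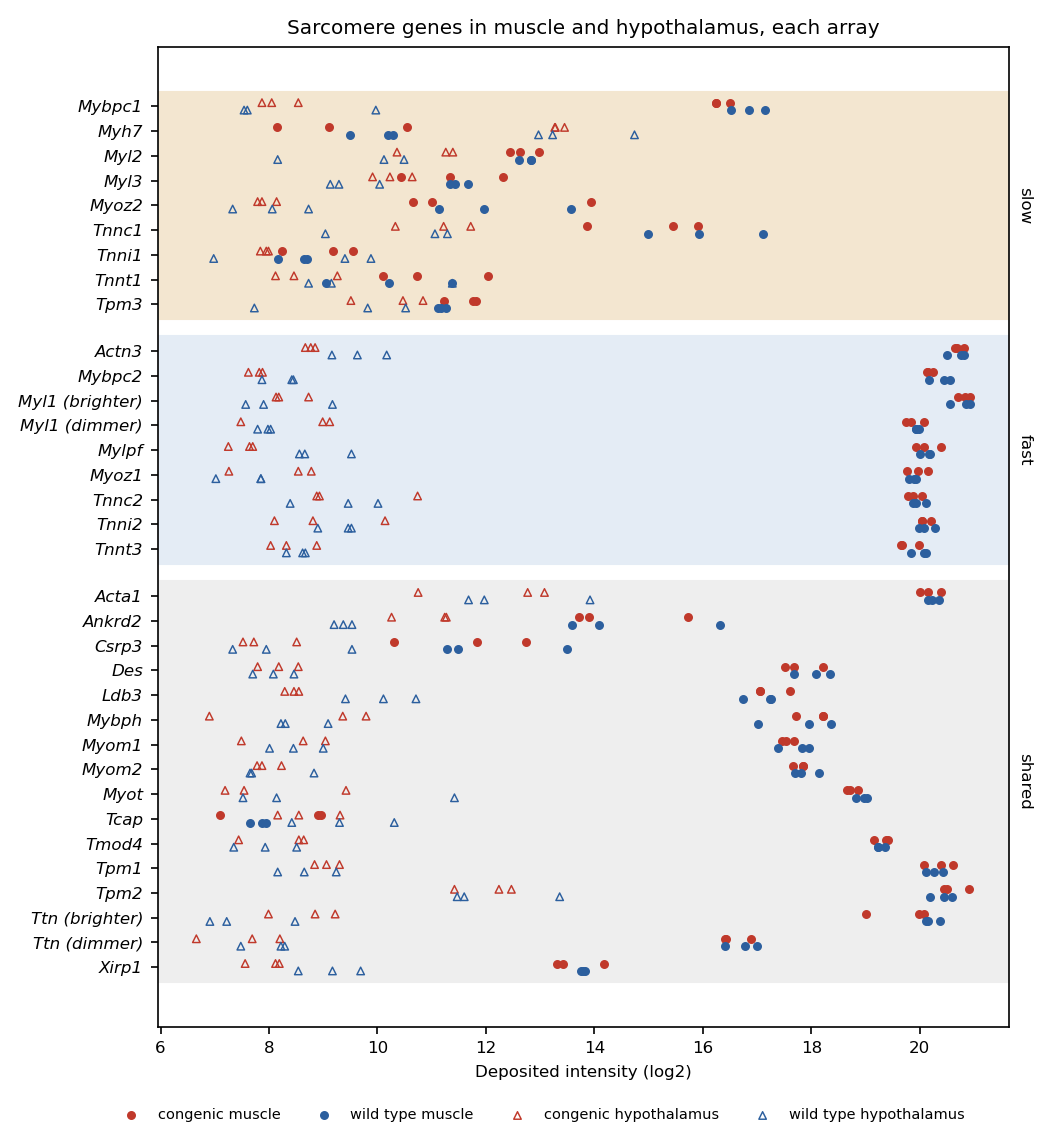
Deposited log2 intensity (x axis) of each of the 34 probes on each of the 12 arrays; filled circles are muscle and open triangles hypothalamus, red is congenic and blue wild type, and bands group slow, fast and shared genes. The 9 fast probes read between 19.66 and 20.93 in muscle and between 7.02 and 10.74 in hypothalamus, while Myh7 is the only called gene with its hypothalamus points to the right of its muscle points.

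The last comparison was between the strains in hypothalamus, where most members read below the median probe. No member passed: 0 of 34 probes, with 0 of 33012 on the whole array (0%), by limma. At an unadjusted p under 0.05 there were 3 members, against 658 of all probes (1.99%). The strains did not overlap for 5 of 34 probes, those of Actn3, Mylpf, Ankrd2, Ldb3 and Xirp1, against 9.16% of all probes. The slow, fast and shared medians were -0.11, -0.20 and -0.10 log2, against -0.07 over all probes. Leaving out wild type array 1 or 3 turned the slow median positive, to 0.10 and 0.59, and without array 1 the shared median was 0.22 and the fast median -0.23.

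Mylpf read 7.25, 7.70 and 7.64 in congenic and 8.66, 8.56 and 9.52 in wild type hypothalamus. Every value of the congenics was below every wild type value, and the difference was -1.38 log2 (SE 0.46, limma adjusted p = 0.936). The congenic values all lay below 7.87, the 20th percentile of the probes in hypothalamus. Ldb3, the Z disc protein also called cypher, read 8.46, 8.29 and 8.55 in congenic and 10.11, 9.41 and 10.71 in wild type hypothalamus. The groups were again separate, with a difference of -1.64 log2 (SE 0.60, limma adjusted p = 0.936).

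Ankrd2 read 10.26, 11.24 and 11.27 in congenic and 9.53, 9.37 and 9.20 in wild type hypothalamus. Here all congenic values were the higher, by 1.55 log2 (SE 0.61, limma adjusted p = 0.936). Without wild type array 1, 0 of 34 probes passed as well, and 4 members had an unadjusted p under 0.05, against 5.33% of all probes. The differences were -1.51 for Mylpf, -1.63 for Ldb3, 1.64 for Ankrd2 and -1.71 for Tnni1. Tnni1 read 7.99, 7.84 and 7.95 in congenic and 6.98, 9.88 and 9.40 in wild type hypothalamus, and its difference with all arrays was -0.82 log2.

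A test of whether the strain difference itself differed between muscle and hypothalamus called 0 of 34 members and 0 of 33012 probes (0%) by limma, with 1198 probes (3.63%) and 3 members at an unadjusted p under 0.05. The 3 were Ldb3 at 1.81 log2, Mylpf at 1.39 and the brighter Ttn probe at -1.68, with limma adjusted p-values of 0.913 or more over the members. Without wild type hypothalamus array 1, 0 members and 0 probes (0%) were called, with 4 members and 2224 probes (6.74%) at an unadjusted p under 0.05. The 4 were Tnni1 at 2.19 log2, Ldb3 at 1.79, Mylpf at 1.52 and the brighter Ttn probe at -1.52, and the lowest limma adjusted p of a member was 0.58.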

How the data were processed

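Expression was measured on 12 chemiluminescent one-colour arrays (digoxigenin-labelled cRNA), 3 per group. The log2 intensities deposited by the authors were used without change. The sources used here do not give software or background correction, and detection calls were not used here. The 6 arrays of a tissue had identical distributions, as quantile normalization per tissue would leave them. Groups came from the sample titles, because the description gives the congenic strain even for wild type samples. Probes were named through the platform annotation: 14411 had 1 symbol, 247 several and 18354 none. Chromosomes and promoters came from RefSeq tables of GRCm38.p6, in which 14402 probes matched by gene ID.

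The strains were compared within each tissue, and tissues and the interaction over 12 arrays, by moderated linear models with a mean-variance trend (limma 3.58.1, R 4.3.3; Benjamini-Hochberg over 33012 probes, two-sided threshold of 0.05), tested on simulated data. Lists were summarised by counts and medians with 1 probe per gene, the one with the highest mean. Values on every array were given for measured myosin heavy chains, members at an unadjusted p under 0.05 in muscle and the 3 largest muscle differences per list; from other lists the 3 largest were named. The members and lists were chosen with earlier results of these data known. The number of arrays limits the precision. Alternatives left out arrays or changed the variance prior, block, normalization, floor, filter or probe choice. Leaving out both arrays numbered 3 was chosen after seeing the data.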

Additional observations from a re-analysis of the deposited data

How the results depend on the processing

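Under every alternative run, 0 of the member probes tested were called between the strains in muscle, in hypothalamus or in the interaction, and 30 to 32 of 34 between the tissues. All 34 were tested except with 1 probe per gene (32) and with the filter on dim probes (32 in muscle and 14 in hypothalamus). In muscle the count over all probes, 6, became 2 without the mean-variance trend, 2 with low values floored at the 20th percentile and 1 in a fit over 12 arrays, and lay between 2 and 8 when 1 array was left out (2 without wild type array 2, 3 without congenic array 2 or wild type array 3). Without the arrays numbered 3 of both strains the sign turned for Acta1 (0.09), Mybph (-0.20), the Myl1 probe 616487 (-0.12), Mylpf (-0.09), Tmod4 (-0.03) and Tnnc2 (0.02), and quantile normalization over 12 arrays turned Mylpf (-0.01). Leaving out 1 muscle array at a time turned the sign for 19 probes, whose values then ran from -0.17 to 0.03 for Acta1, -0.07 to 0.08 for Actn3, -0.85 to 0.61 for Ankrd2, -1.02 to 0.24 for Csrp3, -0.02 to 0.25 for Ldb3, -0.11 to 0.57 for Mybph, -0.07 to 0.12 for Myl1 probe 616487, -0.16 to 0.00 for Myl1 probe 690030, -0.23 to 0.03 for Myl2, -0.60 to 0.34 for Myl3, -0.12 to 0.11 for Mylpf, -0.19 to 0.03 for Myom2, -0.01 to 0.19 for Myoz1, -1.39 to 0.32 for Myoz2, -0.01 to 0.12 for Tmod4, -0.13 to 0.01 for Tnnc2, -0.09 to 0.07 for Tnni2, -0.03 to 0.24 for Tpm1 and -0.42 to 0.02 for Xirp1. Between the tissues, Tnni1 ran from -0.04 (without wild type hypothalamus array 1) to 0.68 with 1 array left out, Tnnt1 passed without that array (1.81) or without wild type muscle array 1 (1.69, limma adjusted p = 0.0479), and Tpm3 missed without congenic hypothalamus array 2 (1.39, limma adjusted p = 0.0504). Quantile normalization over 12 arrays moved the median of all probes from 0.17 to -0.01, the fast median to 11.40, the shared median to 8.71 and the split of all calls to 4826 higher and 4292 lower in muscle, from 6120 and 3633. The slow median in hypothalamus, -0.11, ran from -0.26 to 0.59 with 1 array left out. Samples with the same number in both muscle strains deviated together by correlations of 0.069, 0.015 and 0.063. The numbers were therefore not taken as pairs, although 5 of the 6 samples correlated best with their own number. Between the tissues of the congenics 6 of 6 did so, at correlations of 0.035, 0.023 and 0.021. Between the hypothalamus strains and between the wild type tissues 2 of 6 did so. These counts are a hint from the data and not from the design. With the replicate block 0 members were called in muscle, and 3 had an unadjusted p under 0.05, against 1 without it. The block changed no member's call in the other comparisons. The cause of these shifts was not tested.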

Other observations

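Marker lists of other cell types were measured in the same muscle fit, and 0 of their genes passed limma's test between the strains. The macrophage and erythroid lists had the highest medians. The macrophage markers were higher in the congenics for 5 of 6 genes, with a median of 0.61 log2, against 0.01 over all probes. Their 3 largest differences were the complement C1q chains C1qa at 0.99 (limma adjusted p = 0.465), C1qb at 0.92 and C1qc at 0.82. The erythroid markers also had a median of 0.61, with 4 of 5 higher, led by Klf1 at 0.99, Hba-a1 at 0.72 and Alas2 at 0.61. Klf1 read between 8.0 and 9.95 in muscle, around the median probe of the array at 9.12.

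The fibroblast and tendon markers were higher for 9 of 11 genes, with a median of 0.26, led by the collagen chains Col1a1 at 0.76 and Col1a2 at 0.50 and the tendon factor Scx at 0.57. The smooth muscle markers were higher for 5 of 6 genes, with a median of 0.30 and Lmod1 at 0.74, Tagln at 0.59 and Cnn1 at -0.56. The cardiac markers had a median of 0.27, led by Actc1 at 0.99, Myh6 at 0.85 and Mybpc3 at 0.39. Mybpc3 read below the median probe on every muscle array. Myh6 read 9.20, 8.92 and 10.85 in congenic and 8.09, 9.20 and 9.13 in wild type muscle, so congenic array 3 made most of its difference.

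The endothelial markers had a median of -0.05, with Cdh5 at -1.52, Vwf at 0.91 and Tek at -0.49. The satellite cell markers had a median of -0.11, with Vcam1 at -1.09, Myf5 at 0.52 and Chodl at -0.46. The adipocyte markers had a median of -0.13, with Cidec at 1.36, Lep at 0.48 and Fabp4 at -0.14. The neuron markers had a median of 0.02, with Eno2 at 1.32, Snap25 at -0.79 and Syt1 at -0.57. Snap25 read below the median probe on every muscle array. Eno2 read 9.34, 8.19 and 11.06 in congenic and 8.15, 8.18 and 8.27 in wild type muscle. The muscle means of Cdh5, Vwf, Vcam1 and Lep were 8.75, 8.57, 8.41 and 8.68, below the median probe. Of the Schwann cell markers 2 were measured, Pmp22 at 0.46 and Egr2 at 0.10.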
